A study of Mus musculus with 12 samples.

Results

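The 5 genes Atp2a1, Casq1, Trdn, Jph1 and Srl encode proteins that store and move calcium in the sarcoplasmic reticulum, and each had 1 m6A site listed as higher in inguinal white adipose tissue (iWAT) of cold-exposed mice than of mice kept at thermoneutrality. Members were chosen by gene name, as every row for these genes in the deposited tables of differential m6A sites. They gave 5 of 739 sites and 5 of 574 genes. The genes were picked because they were listed, so their folds and p-values are the values that chose them, and no test of them is given.

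The study compared iWAT of young adult male C57BL/6 mice (C57BL/6J in the study's methods) after 7 days at 4 °C with iWAT of mice held at 30 °C for as long. Methylated RNA immunoprecipitation sequencing (MeRIP-seq) gave 3 m6A immunoprecipitation (IP) libraries and 3 input libraries of RNA fragments in the cold group, and as many of each at thermoneutrality. The labels name no transgene, and RNA came from the whole fat pad, with every cell type in it. The labels name the source as adipocytes.

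A site is a stretch of the genome, at least 300 bp long, in which the authors' comparison of cold with thermoneutral libraries (diffReps) found unequal signal. Its fold is the larger group value over the smaller and was printed above 1 in the table of higher sites as well as in that of lower sites. The smallest fold listed was 4.01, the largest p-value 9.65e-06 and the largest false discovery rate 7.27e-05. Of the 739 folds, 109 were whole multiples of 0.1, and no member fold was. Whether such folds are measured sizes was not tested, and ranges and ranks by fold take them as listed. Both tables hold group results only, so no SD can be given for a fold, the depth behind it is unknown, and a gene without a row may have had a smaller change, too few reads or none. The sources used here do not say whether input libraries entered the comparison, so a fold may hold transcript amount as well as methylation. In bulk tissue, more cells of a type and more RNA or more methylation per cell cannot be told apart. The antibody also binds m6Am, the methylated cap-adjacent base, and the tables do not separate it from m6A.

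The sarcoplasmic reticulum is the calcium store of striated muscle. On excitation, calcium leaves through the ryanodine receptor at a junction with the surface membrane, and the calcium pump SERCA returns it to the lumen at the cost of ATP. Atp2a1 encodes SERCA1, the pump of fast-twitch fibres, and Srl encodes sarcalumenin, a calcium-binding glycoprotein of the lumen. Casq1 encodes calsequestrin-1, the main calcium buffer of skeletal muscle, whose acidic tail binds calcium. Trdn encodes triadin, which links calsequestrin to the ryanodine receptor, and Jph1 encodes junctophilin-1, which ties the store to the surface membrane. In beige adipocytes, calcium cycling has been described as a heat source that does not need Ucp1, and it is known there through another pump gene, Atp2a2 (SERCA2b), and through Ryr2.

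Sequences of the sites are shown because the part of the mRNA under the site differed between members. They were read from mm10 on the strand of the gene. The first set holds 26 bases around 1 GGAC of each of 4 sites, the most central one, with GGAC, a common core of the m6A motif, in capitals. Whether the A in any of them was methylated was not measured.
Atp2a1 (5′ UTR, chr7:126463077-126463102, minus strand): ctgcgcaagtaGGACtggggtcagaa
Casq1 (3′ UTR, chr1:172210238-172210263, minus strand): tgggctccttgGGACactaggtcatt
Jph1 (3′ UTR, chr1:16996857-16996882, minus strand): ctggagagagaGGACtgccagaggaa
Srl (coding sequence, chr16:4482816-4482841, minus strand): cagacttacaaGGACaaaatgacctt

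The second set holds coding sequence within the sites. In the Atp2a1, Casq1 and Srl runs, capitals mark the DRACH motif, in which the first base is A, G or T, the second A or G, the third A, the fourth C and the last A, C or T. In the Trdn run, capitals mark the coding bases and stop codon that lie past the 177-base exon of 4 other coding transcripts. The transcript read there is called short for its 831 coding bases, though its exons hold 4149 bases.
Atp2a1, start of the coding sequence (chr7:126462805-126462922, minus strand): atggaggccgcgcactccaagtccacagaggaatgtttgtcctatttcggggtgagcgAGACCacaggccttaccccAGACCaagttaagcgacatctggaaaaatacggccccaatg
Casq1, end of the coding sequence (chr1:172210345-172210503, minus strand): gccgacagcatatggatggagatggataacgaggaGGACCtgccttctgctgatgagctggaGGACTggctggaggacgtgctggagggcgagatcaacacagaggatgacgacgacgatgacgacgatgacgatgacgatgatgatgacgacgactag
Trdn, last coding exon of the short transcript (chr10:33195949-33196172, plus strand): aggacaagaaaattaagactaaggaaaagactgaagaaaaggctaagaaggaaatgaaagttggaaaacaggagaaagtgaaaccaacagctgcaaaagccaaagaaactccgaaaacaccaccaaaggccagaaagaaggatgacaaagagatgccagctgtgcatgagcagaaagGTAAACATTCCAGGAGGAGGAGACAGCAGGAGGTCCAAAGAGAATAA
Srl, middle of the site (chr16:4482682-4482981, minus strand): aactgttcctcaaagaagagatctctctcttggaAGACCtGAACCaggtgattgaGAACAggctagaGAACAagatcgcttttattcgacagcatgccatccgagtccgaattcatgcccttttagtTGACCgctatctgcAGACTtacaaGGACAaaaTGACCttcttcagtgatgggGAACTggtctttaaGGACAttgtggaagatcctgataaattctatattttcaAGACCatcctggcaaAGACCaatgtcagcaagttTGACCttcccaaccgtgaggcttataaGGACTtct

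The pump gene Atp2a1 (Entrez 11937) had a site of 304 bp at chr7:126462805-126463108, which was listed at 16.8-fold higher in cold (log2 4.07) with a deposited diffReps p of 3.19e-07 and a false discovery rate of 2.94e-06. Of the 301 sites higher in cold it ranked 126 by fold and 224 by p-value. It covered exon 1 of 23 from end to end, with 186 bases of 5′ UTR and the first 118 coding bases, and its midpoint lay in the 5′ UTR. The site held the annotated transcript start, as did 12 of all 739 sites (1.62%). A short coding transcript of Atp2a1, with 5 exons, held none of the site.

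Srl (Entrez 106393) was listed at 117-fold (log2 6.87, diffReps p of 2.02e-08), in 379 bp at chr16:4482642-4483020. It ranked 50 by fold and 115 by p-value. The whole site was coding sequence in exon 7 of 7, a long last exon of 3057 bases, and 166 coding bases followed it. Both coding transcripts, with 2730 and 1416 coding bases, held all of it, so the site does not separate the long sarcalumenin form from the short one.

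For the buffer gene Casq1 (Entrez 12372), the site was listed at 8.19-fold (log2 3.03, diffReps p of 2.20e-06), and ranked 188 by fold and 280 by p-value. It took up 422 bp at chr1:172210082-172210503 in the last of 11 exons. The stop codon lay inside it: 159 bases were the end of the coding sequence with its stop, and 263 bases were 3′ UTR. The coding part printed above is the acidic tail. Of its 52 codons before the stop, 14 were GAC, 9 GAT and 9 GAG, so that 32 encoded aspartate or glutamate, and 18 of the last 20 did. The coding part held 2 DRACH motifs, in capitals above, and 3 GGAC.

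Of the junction genes, Trdn (Entrez 76757) was listed at 7.65-fold (log2 2.94, diffReps p of 1.15e-06), the lowest fold of the members, and ranked 199 by fold and 267 by p-value. Its 312 bp at chr10:33195949-33196260 began with a coding exon of 177 bases, exon 8 of 38 in the longest transcript, and went on for 135 bases past the end of that exon. Those 135 bases were exonic in 1 annotated transcript, which has 8 exons and 831 coding bases against 2079 in the longest. In that transcript the exon runs on without splicing to 369 bases, adds 44 coding bases and the stop codon at chr10:33196170, and then turns to 3′ UTR. There is 1 value for the whole site, so how the signal was split between the shared exon and the extension was not measured. Intronic reads of the transcripts spliced at the end of the shared exon would fall on the same 135 bases.

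Jph1 (Entrez 57339), also of the junction, had the highest fold of the members, 212 (log2 7.73, diffReps p of 8.25e-09), and ranked 29 by fold and 66 by p-value. The site of 559 bp at chr1:16996342-16996900 lay wholly in the 3′ UTR, in the last of 5 exons, and 578 bases separated it from the stop codon. The gene Gm28376 spans the same stretch on the other strand but has 0 exon bases in it. The library kit as described does not mark strand, so reads of its unspliced RNA could not be told apart from those of Jph1.

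**Figure D1:**
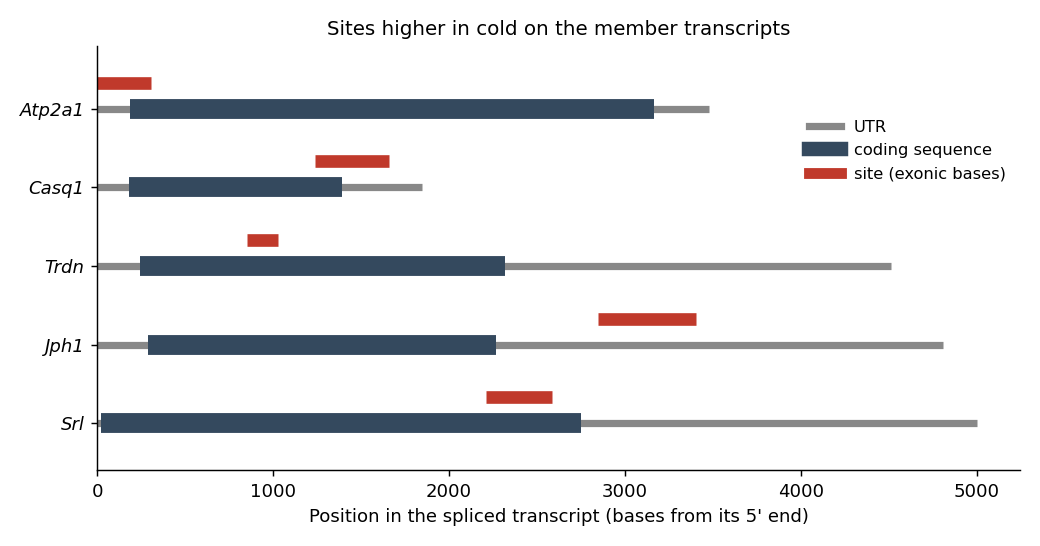
Position of each member's site (red) on its longest coding transcript, in bases from the 5′ end, with UTRs in grey and coding sequence in dark blue. The sites lie at the 5′ end in Atp2a1, across the stop codon in Casq1, within the coding sequence in Trdn (177 of its 312 bases; the other 135 lie past the exon and are not drawn) and Srl, and in the 3′ UTR in Jph1.

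By the midpoint of the site, 1 member was placed in the 5′ UTR, 2 in the coding sequence (Trdn and Srl) and 2 in the 3′ UTR (Casq1 and Jph1). Among 653 sites that could be placed, 13 (1.99%) were in the 5′ UTR, 233 (35.7%) in the coding sequence and 407 (62.3%) in the 3′ UTR. Member sites were 304 to 559 bp long, with a median of 379, beside a median of 419 over all sites higher in cold.

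All 5 members were listed as higher in cold and none as lower, where 40.7% of all listed sites and 38.9% of all listed genes were higher. This was how the members were picked, and nothing is read from it. Their folds fell into separate ranges: Jph1 and Srl at 212 and 117, Atp2a1 at 16.8, and Casq1 and Trdn at 8.19 and 7.65. The median of the members was 16.8, beside 11.8 for all 301 sites higher in cold, with quartiles of 6.87 and 62.7. Of all 223 genes with a site higher in cold, 53 (23.8%) had one above 100-fold, and 52 (23.3%) had their strongest between 16.8 and 117. Of the 15 genes with a site on the skeletal muscle list described below, members included, 5 (33.3%) were above 100-fold and 0 in between. The gap is thus not particular to the members.

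For 4 of the 5 members, the −log10 p was smaller than that of most higher sites of like fold. Against the 50 higher sites nearest in log2 fold and outside the skeletal muscle list described below, the −log10 p was 5.66 for Casq1, where 46 of the 50 had a larger one and the median was 6.93. For Trdn it was 5.94, and 44 of 50 had a larger one. For Atp2a1 it was 6.50, and 41 of 50 had a larger one, for Srl 7.69 and 39 of 50. Jph1, at 8.08, stood in the middle, with 24 of 50 larger. The other muscle list sites lay on the same side: 38 of 39 had a smaller −log10 p than most of their neighbours, and so did 10 of the 11 that were not in Ttn. Of 30 sites in beige and brown adipocyte genes, 14 did. The neighbours could be beige and brown list sites but not muscle list sites, so the muscle and beige counts are not like for like. This comparison was chosen after the values were seen, uses the folds and p-values that chose the members, and is a description. In a count comparison such a p-value falls with the number of reads and with agreement between libraries, and the tables give neither, so their part in it was not tested.

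**Figure D2:**
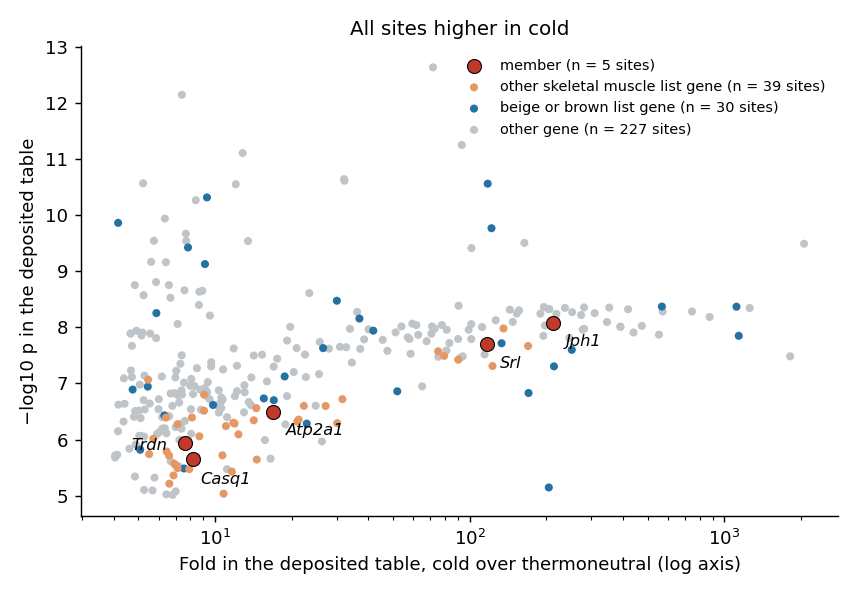
Each point is 1 of the 301 sites higher in cold, with its fold, cold over thermoneutral, on a log axis and its −log10 p as deposited. Members are red, other skeletal muscle list genes orange, beige or brown adipocyte list genes blue and all other genes grey; Casq1, Trdn and Atp2a1 sit with the orange points along the lower edge, and Srl and Jph1 farther right at −log10 p of 7.69 and 8.08.

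Each member site was set beside the 698 sites that lay inside a single exon, by the number of DRACH motifs per 1000 bases on the strand of the gene. Each of these sites held at least 1, with a median density of 21.9 and quartiles of 17.3 and 26.4. Srl had 17 motifs, a density of 44.9 that was above 99.7% of the sites, and 14 of them are in the run printed above. Trdn had 12 (38.5, above 97.9%), of which 8 fell in the shared exon and 4 past it. The other members lay below the lower quartile: Atp2a1 with 5 motifs (16.4), Jph1 with 7 (12.5) and Casq1 with 4 (9.48, above 4.15%). The shorter motif GGAC, which overlaps DRACH wherever the next base is A, C or T, occurred in all 5 members, 4 times each in Casq1 and Srl and once in each of the others, and in 588 of the 698 sites (84.2%). The order of the members by density was not their order by fold, as Jph1 had the highest fold and the second lowest density.

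**Figure D3:**
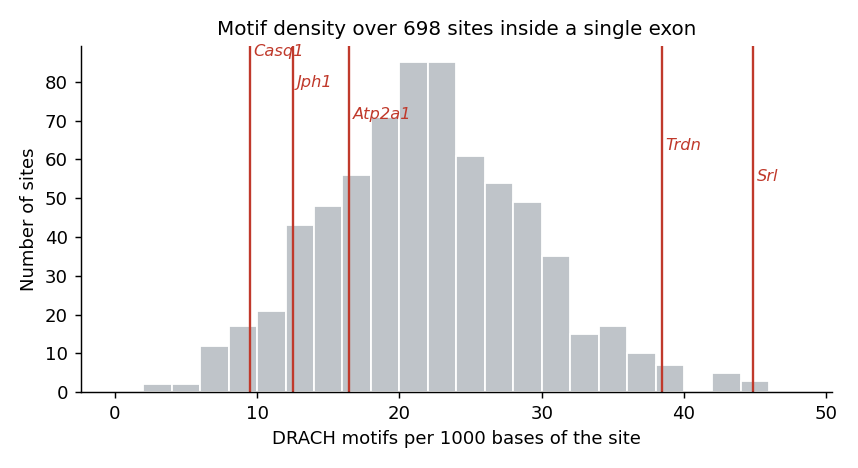
Number of sites (bars) by DRACH motifs per 1000 bases, over the 698 sites inside a single exon, with each member as a red line. Srl (44.9) and Trdn (38.5) lie at the upper end, and Casq1 (9.48), Jph1 (12.5) and Atp2a1 (16.4) below the lower quartile of 17.3.

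A list of 72 genes of calcium stores, channels, pumps and sensors gives the rest of the pathway. It had 8 genes with a site, 6 higher in cold and 2 lower, where 38.9% of all listed genes were higher. Of the 6, 5 were the members. The other higher one was Hrc, the histidine-rich calcium-binding protein of the sarcoplasmic reticulum lumen, which binds triadin. Its site of 479 bp lay in the coding sequence of exon 1 (chr7:45336102-45336580) and was listed at 4.88-fold (diffReps p of 1.22e-06), below every member. Without the members, therefore, 1 gene of the list was higher and 2 were lower.

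The lower genes were Asph, of the junction group like Trdn and Jph1, and Camk2d, of the sensors and kinases. Asph, whose short transcripts encode the junction protein junctin and whose long ones encode a hydroxylase, had 2 sites at 65.0-fold and 58.0-fold lower in cold (chr4:9450222-9450740 and chr4:9449122-9449500). Both were 3′ UTR of exon 24, which 3 of its 15 coding transcripts contain. Those 3 have at least 1974 coding bases and the others at most 930, so the sites were annotated in the long, hydroxylase forms. Camk2d, a calcium- and calmodulin-dependent kinase, had a 3′ UTR site at 9.95-fold lower (chr3:126842882-126843320).

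The remaining 64 genes of the list had no site. In all, 574 genes had a site, and their share of all annotated genes was not worked out. Nothing is therefore read from how many list genes had a site or had none. Among the 8 pump genes and pump regulators, Atp2a1 and Srl had one, and Atp2a2, Atp2a3, Sln, Pln and Mrln had none. Strit1 was in no row of the tables either, but that symbol was not found in the annotation used to place sites, so whether it has an exon long enough for a site was not looked up. Atp2a2 is the pump of slow muscle, heart and, as SERCA2b, most other cells. Among the 20 genes of the junction, the ryanodine receptor genes Ryr1, Ryr2 and Ryr3, the voltage sensor subunit Cacna1s and the cardiac junctophilin Jph2 had none. Of the 6 buffers and chaperones, Casq1 had one, while Casq2 of slow fibres and heart, Calr, Canx, Hspa5 and Pvalb had none. The 10 genes of inositol phosphate receptors and store-operated entry and the 17 of surface and mitochondrial transport had none either. Exons were counted on the longest coding transcript of each gene. On it, an exon of at least 300 bases, the shortest site length, was annotated in 65 of the 71 list genes found in the annotation. Of these 65, 57 had no site. Other transcripts were not counted, and the Trdn site lies inside a single exon only in another transcript. Atp2a2 had 4 such exons, Ryr1 6, Ryr2 6, Casq2 2 and Jph2 4.

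The members were then set beside marker genes of the cell types that a fat pad can hold. On a list of 86 skeletal muscle genes, which includes the 5 members, 15 had a site, and each of their 44 sites was higher in cold. Over all listed sites, 40.7% were higher. This list was drawn up with earlier results of these data known, and the 5 members in it were picked for being listed as higher. The 10 other genes were the giant sarcomere proteins Ttn and Neb, the fast myosin heavy chains Myh1, Myh2 and Myh4, the tropomyosins Tpm1 and Tpm2, desmin (Des), the actin-binding Xirp2 and Pygm, the glycogen phosphorylase of muscle. Their strongest folds had a median of 11.2 and ran from 5.46 in Tpm1 to 169 in Neb. Ttn alone had 28 sites, at 5.51- to 123-fold. Myh2 was at 14.6-fold, Myh1 at 11.6 and Myh4 at 10.8. Jph1 was thus above each of the 10, and Srl above all of them but Neb, Pygm and Ttn, while 2 genes, Tpm2 and Tpm1, lay below Trdn.

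The list held 71 genes with no site. The share of all annotated genes with a site was not worked out, so nothing is read from the counts with and without a site. They included Acta1, Ckm and Mb, which rank among the most abundant mRNAs of muscle, the slow myosin Myh7 and the fast troponin and myosin light chain genes Tnnt3 and Mylpf. On the longest coding transcript, an exon of at least 300 bases was annotated in 71 of the 86 list genes, and 56 of these had no site. On that transcript, Tnnt3, Mylpf, Tnni2, Tnnc2 and Actn3 have no exon of 300 bases, Acta1 has 2, and Ckm and Mb have 1 each. Over all annotated transcripts of a gene, 94.5% of all listed sites lay inside a single exon. The exon counts and this share thus do not rest on the same transcripts. Of 10 cardiac muscle genes none had a site, and of 12 smooth muscle and mural genes Notch3 had one, at 22.5-fold higher in cold.

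On a list of 35 beige and brown adipocyte genes, 20 had no site, among them Prdm16, Elovl3, Cox8b, Ebf2 and Pparg. As for the other lists, no share over all annotated genes stands beside this count. The other 15 had 30 sites, and these were also all higher in cold, beside 40.7% of all listed sites. This list, too, was drawn up with earlier results of these data known. The strongest folds of the 15 genes had a median of 118 and ran from 9.12 in Plin5 to 1138 in Otop1. The highest, Otop1 at 1137.8, Nat8l at 1114.7 and Dio2 at 567.9, were whole multiples of 0.1. Whether these are measured sizes was not tested, so the upper end of the range is given as listed. Ucp1, the uncoupling protein of brown and beige fat, was at 204-fold and Dio2, which activates thyroid hormone, at 568-fold. Ppargc1a, a coactivator of mitochondrial gene expression, was at 17.0-fold, next to Atp2a1. The highest member, Jph1, was below 4 of the 15 beige genes (Otop1, Nat8l, Dio2 and Letmd1) and above Ucp1, and the lowest, Trdn, was below all of them. By the strongest site of each gene, the medians were 16.8 over members, 11.2 over other muscle genes, 118 over beige genes and 13.0 over all genes with a higher site. Members had 5 sites in 5 genes, the beige genes 30 in 15, and Ttn alone 28. The strongest was thus taken over unequal numbers of sites. Muscle genes and beige genes were thus listed in the same direction as the members, and the part of each cell type in the member sites was not tested.

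**Figure D4:**
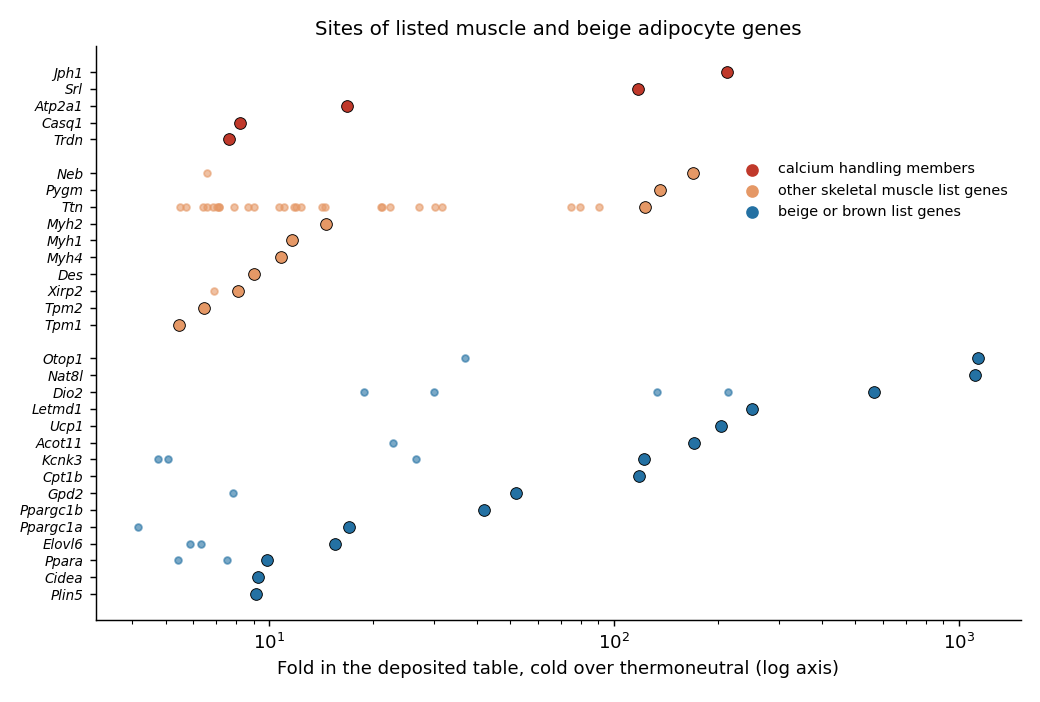
Fold of every site, cold over thermoneutral on a log axis, for the members (red), the other skeletal muscle list genes (orange) and the beige or brown list genes (blue), with the strongest site of a gene outlined and its further sites pale. By their strongest site, members run from 7.65 to 212, other muscle genes from 5.46 to 169 and beige genes from 9.12 to 1138, so the 3 ranges overlap.

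The genes whose strongest site was nearest in log2 fold to the median of the members, 16.8, were Jmy (17.0, a difference of 0.0116), Ppargc1a (17.0, 0.0128) and Pcca (16.5, 0.0302), over 1 fold value a gene. Gene annotation that the authors placed beside the sites was looked at after the values were seen. Of 10 listed genes with the cellular component term for the sarcoplasmic reticulum, 7 were higher in cold, where 38.9% of all listed genes were. The 5 members, picked for being listed as higher, are among the 7, and of the rest Hrc and Pygm were higher and Asph, Camk2d and Ank3 lower, so nothing particular to the term is read from this count. Of 9 genes with the calcium signaling pathway term, which is mostly made of receptors and their effectors at the surface, 2 were higher, Atp2a1 and the adrenergic receptor gene Adra1a, again beside 38.9% of all listed genes. The other 7 (Adcy9, Avpr1a, Calml3, Camk2d, Egfr, Gnal and Ptafr) were lower.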

How the data were processed

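MeRIP-seq libraries of iWAT (3 IP and 3 input libraries each, cold and thermoneutral) were processed by the study's authors. Per their methods, trimmed paired reads were aligned to mm10 with Hisat2, IP enrichment was called with MACS2, motifs with HOMER and differential sites with diffReps. Notes that the submitters gave with the files list Bowtie 0.12.2 and the builds mm8 and mm10. Coordinates fit mm10, since 728 of 739 sites (98.5%) overlapped the gene named. The deposited tables give, per site, a fold, which is a linear ratio with the larger group on top, a p-value with its false discovery rate, and the −log10 of the p-value. These columns hold the authors' own comparison, and values per library were not analysed here, so they are described as deposited, with no test. The letters C and T of the tables were taken as initials of the sample titles, cold and thermoneutral.

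Sites were placed on GENCODE M21 transcripts (longest coding transcript first, by midpoint) and read from GRCm38 (mm10) with Python 3.11.15, pandas 2.3.3, numpy 2.4.6 and pysam 0.24.0, and plots made with matplotlib 3.10.9. Placement and motif counts were checked on simulated transcripts of a single exon, with each site wholly inside a single region. Introns, and sites across a start codon, stop codon or exon end, were not part of that check. Named genes were the members, every calcium list gene with a site, marker list genes and the 3 genes nearest in fold to the members' median. Members and lists were chosen with earlier results of these data known. Alternatives were a fold of at least 8, a p-value of at most 1e-07, leaving out the 109 folds that are whole multiples of 0.1 (within 1e-06 of a step), leaving out the members, other rules of placement, and GGAC, the middle 300 bases or the other strand for motifs.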

Additional observations from a re-analysis of the deposited data

How the results depend on the processing

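With a p-value of at most 1e-07, 2 of the member sites, and so 2 members, stayed (Jph1 and Srl), and their median fold was 164. At that limit 6 skeletal muscle list genes and 2 calcium list genes had a site higher in cold. Without the 5 members, 1 calcium list gene had a higher site, Hrc. Counting GGAC in place of DRACH gave a median of 3.29 motifs per 1000 bases over the member sites. A fold of at least 8 left out Trdn, so that 4 sites stayed and the median fold of the members was 66.8 instead of 16.8, and left 12 skeletal muscle and 4 calcium list genes instead of 15 and 6. Leaving out the folds that are whole multiples of 0.1 changed none of these counts for the members. The 3′ UTR and the coding sequence held 2 member sites each under every placement rule tried. With 25 neighbours in place of 50, an alternative chosen after seeing the data, all 5 members rather than 4 had a smaller −log10 p than most sites of like fold.

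No paired analysis was possible because the tables hold no value of a single library. For the same reason no library was left out, no depth is given, and agreement between the 3 libraries of a group was not measured. The lists count only sites past the authors' limits, and a gene without a site is not shown to be unchanged.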
